A study of Mus musculus with 22 samples.

Results

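A set of 1234 short ac4C peaks in protein-coding genes of the mouse kidney is described here, out of 9857 peaks in all. They lie in 1128 genes. A peak belonged to the set if it came from the peak list of the diabetic db/db mice, was at most 1000 bases long and shared no base, on its own strand, with any peak of the db/m list. The members were thus chosen by whether the authors' peak caller found IP reads enriched over RNA-seq reads in one genotype and not in the other. The genotype difference in IP reads, RNA-seq reads or their ratio is what selected them, so these values are given below as a description. A member is named as called or not called only to mark the size of its difference against the thresholds used for all peaks, and such a call is no independent evidence. The deposited table marks its lists only as test and control, which were taken here as the db/db and the db/m list.

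Male db/db mice, which grow obese and diabetic, lack a working leptin receptor, and db/m mice carry 1 working copy of the receptor gene and served as controls. Kidneys came from 6 db/db and 5 db/m animals with no further treatment named in the labels, and each animal gave 1 library of RNA pulled down with an antibody against ac4C (IP) and 1 RNA-seq library, which the deposited table calls input. The age at which the kidneys were taken and any pooling of animals are not given in the sources used here. Reads in peaks numbered 7577171 to 9862426 in the db/db IP libraries and 9125099 to 10293757 in the db/m IP libraries, against 3160992 to 3352535 and 3151035 to 3265239 in the RNA-seq libraries. The kidney label was borne out by proximal tubule genes, of which 24 of 44 listed had a peak, with Slc27a2 the most abundant. Their summed RNA-seq level was 15790.5 to 22371 CPM in db/db and 18275 to 21066 CPM in db/m mice. CPM are counts scaled to the library's reads in peaks, adjusted by the TMM scaling factor described under processing. Since the kidneys were studied whole, fewer cells of a type and less RNA per cell cannot be told apart.

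N4-acetylcytidine, or ac4C, is an acetyl mark on cytidine that the enzyme NAT10 writes on ribosomal, transfer and messenger RNA. In messenger RNA it has been linked to stability and translation, and it has been described in runs of CNN, a C followed by any 2 bases. An ac4C peak is a stretch where the antibody brings down more fragments than the RNA-seq library holds, so its read count depends on the amount of the transcript as well as on the mark.

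One animal stood a little apart in both of its libraries. The db/m animal 2 had a median Spearman correlation of 0.954 with the other db/m IP libraries, whereas the other 4 had 0.972 to 0.975, and 0.973 against 0.983 to 0.984 in RNA-seq. Counts of called members without this animal are given beside the results.

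To show what the short peaks look like at the sequence level, the first bases of genes whose start lies in a member are given for the 6 such members with the highest IP level in db/db mice. The bases are from RefSeq (GRCm38.p6), read along the transcript, 30 for each gene beginning at its first base in the peak (base 3 of the gene in Ndufb8, base 8 in Tecr and base 1 in the others), and capitals mark stretches with CNN repeated 4 times on either strand.
Ndufb8 at chr19:44555411-44555440, minus strand, a subunit of respiratory complex I: ttttgcgcatgtgcagagtgaaccgcggag
Guca2b at chr4:119658916-119658945, minus strand, the hormone uroguanylin: tatAAGGGGCTGCTGgccCAGAGGCAGGTG
Tecr at chr8:83594455-83594484, minus strand, an enzyme of very long chain fatty acid synthesis: acgcaTAGAGGGGGGCGGAGCCGGAGtccg
Anapc13 at chr9:102626296-102626325, plus strand, a subunit of the anaphase-promoting complex: gtgacccagaagaAGGGCGGGGCCGggagg
Supt5 at chr7:28338690-28338719, minus strand, a transcription elongation factor: ggaagcttcaggtggcaagcgatcggtgag
Rnaset2a at chr17:8147758-8147787, minus strand, a lysosomal ribonuclease: aagcctgcgctGAGGAGTCGGTGGAGGTCG
All marked stretches in these 6 are on the other strand, so that the transcript has a G at each of 4 positions spaced 3 bases apart, and none is a CNN run of the transcript itself. The Ndufb8 member had an IP level of 108 CPM ± 21.5 in db/db (SD, n = 6) and 62.9 ± 15.4 in db/m mice (SD, n = 5). Its log2 fold change was 0.78 and that of Guca2b 1.11. The members of Tecr, Anapc13, Supt5 and Rnaset2a had log2 fold changes of 0.04, -0.37, 0.15 and 0.60, and Guca2b alone was called. Anapc13 starts beside Cep63 on the other strand, and reads were not counted by strand.

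The start of the peak's own gene, taken as the first 50 bases in RefSeq, lay at least partly in 92 of the 1234 members (7.46%), in 407 of 3798 short coding peaks found in both lists (10.7%) and in 105 of 1253 found only in the db/m list (8.38%). Of the 66 gene starts with 30 or more of these bases in a member, 21 (31.8%) held a CNN run on the transcript strand and 42 (63.6%) held one on the other strand. The shares were 26.5% and 72.5% at the 211 gene starts in peaks of both lists and 31.3% and 58.8% at the 80 in db/m-only peaks, and among all 32851 RefSeq starts 21.1% and 29.0%. Base composition differed alongside, with a median of 72% G and C in the member starts, 70% in those of both lists and 56% over all starts. Its part in the shares was not tested.

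The members were short and shallow. Their median length was 121 bases (range 58 to 992), as in the db/m-only peaks (121 bases), against 211 bases in the peaks of both lists. The mean IP read count of a member over the 11 IP libraries had a median of 3.45, compared with 7.55 in db/m-only peaks and 286 in peaks of both lists. Only 448 members (36.3%) reached a mean of 20 IP reads, whereas 87.9% of the peaks of both lists did. The other 786 had a median of 1.55 reads per library.

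**Figure D1:**
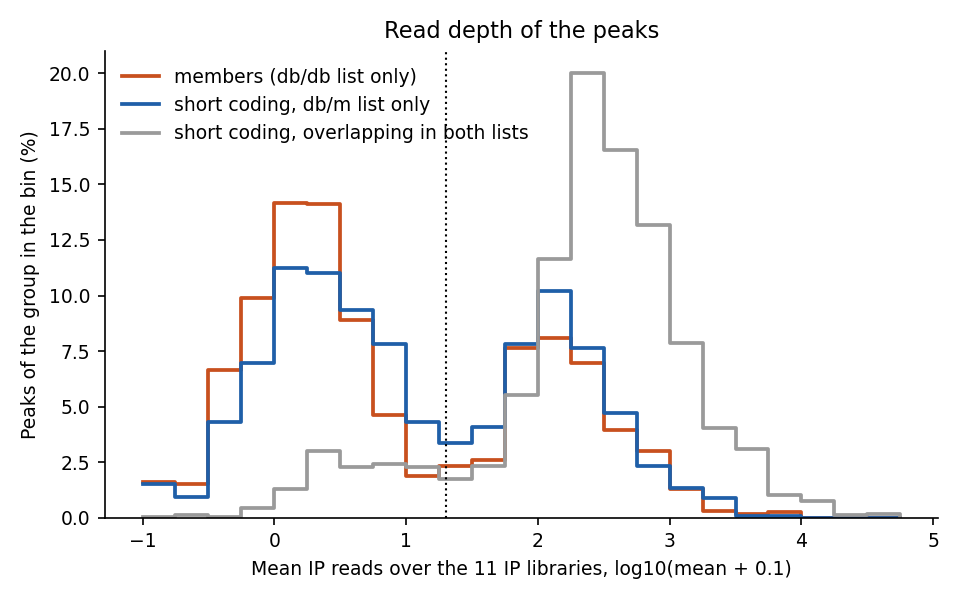
Depth of short coding-gene peaks: the x axis is the mean number of IP reads per peak over the 11 IP libraries on a log10 scale, the y axis the percentage of peaks in each bin, for the 1234 members (orange), 1253 db/m-only peaks (blue) and 3798 peaks in both lists (grey). The dotted line marks a mean of 20 reads, to the right of which lie 36.3% of the members and 87.9% of the peaks in both lists.

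Shallow members also rested on few animals. In 439 members (35.6%) a single db/db animal supplied more than 50% of the db/db IP reads, and 437 of these were among the 786 shallow ones. The same held for 391 db/m-only peaks (31.2%), but for only 175 peaks of both lists (4.61%). All db/db IP reads came from 1 animal in 63 members, and 21 members had no db/db IP read at all. No animal dominated, since each of the 6 was the main source of between 61 and 105 members. The authors' own false discovery rate (FDR) for a peak was above 0.05 in 517 members (41.9%), against 34.3% of db/m-only peaks, 4.0% of peaks of both lists and 15.5% of all peaks, and only 4 of these 517 were among the 448 deeper members.

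Membership of the db/db list did not mean that reads were missing in db/m mice. IP reads were present in db/m mice for 1053 members (85.3%) and absent for 181 (14.7%), where a count of 0 allows up to 3 reads, or 0.291 to 0.329 CPM per library. These limits are scaled to reads in peaks without the TMM factor, unlike the other CPM values. Such limits cover counting error only. All 448 deeper members had db/m IP reads, 443 of them in all 5 animals, and in 405 (90.4%) the db/m mean was at least 50% of the db/db mean. The fold enrichment of IP over input listed with each peak had a median of 6.49 over the members, 2.71 in the 448 deeper and 7.78 in the 786 shallow ones. Single deep members could exceed both medians, as Lpl did with a fold enrichment of 621.

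**Figure D2:**
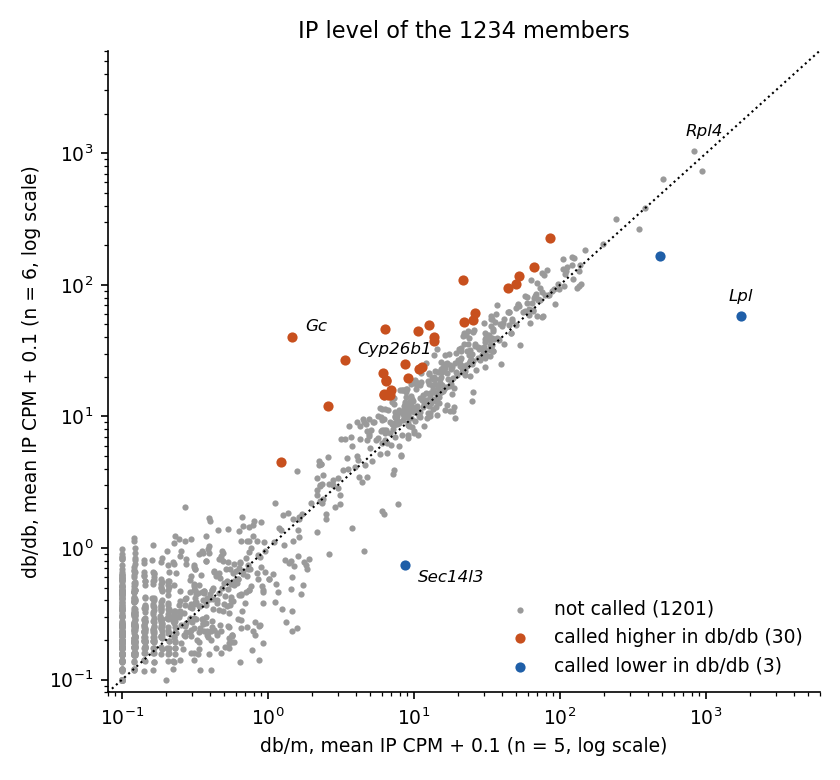
Mean IP level of each of the 1234 members, with db/m mice (n = 5) on the x axis and db/db mice (n = 6) on the y axis, both as CPM + 0.1 on log scales, and the dotted line marking equal levels. Members called higher in db/db mice (30, orange) and lower (3, blue) are far fewer than those not called (1201, grey), and most points above 10 CPM lie close to the line.

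Together the members held 1.79% ± 0.0488 (SD, n = 6) of the IP reads in db/db mice, from 1.74% to 1.88%, and 1.60% ± 0.164 (SD, n = 5) in db/m mice, from 1.43% to 1.79%. These ranges overlapped. In RNA-seq the shares were 2.89% ± 0.121, from 2.77% to 3.09%, and 2.52% ± 0.132, from 2.31% to 2.64%, without overlap. Members held more of the RNA-seq than of the IP reads in either genotype. The mean IP level was higher in db/db mice for 905 members (73.3%), which follows from how they were chosen.

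Summed RNA-seq levels of some cell type lists moved with the genotype. The 6 endothelial genes with a peak, Plvap the most abundant, had 417 to 745 CPM in db/db and 309 to 403 CPM in db/m mice, without overlap. Podocyte genes had 786 to 1025 CPM and 804 to 1185 CPM, and the 4 immune cell genes with a peak 5.37 to 43.1 CPM and 6.62 to 19.5 CPM, both with overlap. The part of such shifts in the values of single members was not tested.

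A peak was called changed when its log2 fold change, db/db over db/m, was beyond 1 in size and its Benjamini-Hochberg adjusted p was below 0.05 by the quasi-likelihood test of edgeR across all 9857 peaks. By this count 30 members (2.43%) were higher in db/db mice in IP reads and 3 (0.243%) were lower, beside 1.59% higher and 1.72% lower over all peaks. In RNA-seq reads 27 (2.19%) were higher and 17 (1.38%) lower, beside 1.98% and 1.97%. Among the 448 members with a mean of 20 IP reads or more, 27 (6.03%) were higher and 7 (1.56%) lower in RNA-seq reads. The shares over all peaks take in peaks of any depth, so they are no match for this subset. In IP relative to RNA-seq reads 0 of all 1234 members were higher and 1 was lower, beside 0.0101% each way. Without db/m animal 2 the IP counts were 33 and 3 and the RNA-seq counts 31 and 16. Nothing is read from these shares, because the same contrasts chose the members. The median log2 fold change of the members was 0.55 in IP, -0.26 in RNA-seq and 0.72 in IP relative to RNA-seq reads, against 0.00, -0.01 and 0.02 over all peaks. Values for the db/m-only peaks, chosen the opposite way, were -0.34, 0.35 and -0.61.

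The medians differed between deeper and shallow members. Among the 448 deeper members the medians were 0.30 in IP, 0.08 in RNA-seq and 0.19 relative to RNA-seq reads. They were 1.15, -0.91 and 2.16 among the 786 shallow ones. Among 391 members with a mean of 10 RNA-seq reads or more, the ratio of IP to RNA-seq CPM had a median of 0.898 in db/db and 0.780 in db/m mice and was above 1 in 165 and 133 of them. Peaks of both lists had ratios of 1.21 and 1.20.

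All 33 members called in IP reads were among the 448 deeper ones, in 32 genes. Each had an RNA-seq change of the same direction, and 22 were also called in RNA-seq reads, 19 higher and 3 lower. The same count over all peaks called in IP reads is not given here. Nothing is read from this agreement, since both kinds of read come from the same animals and both entered the choice of members. The median size of the log2 fold change of these 33 members was 1.44 in IP reads and 0.26 in IP relative to RNA-seq reads.

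**Figure D3:**
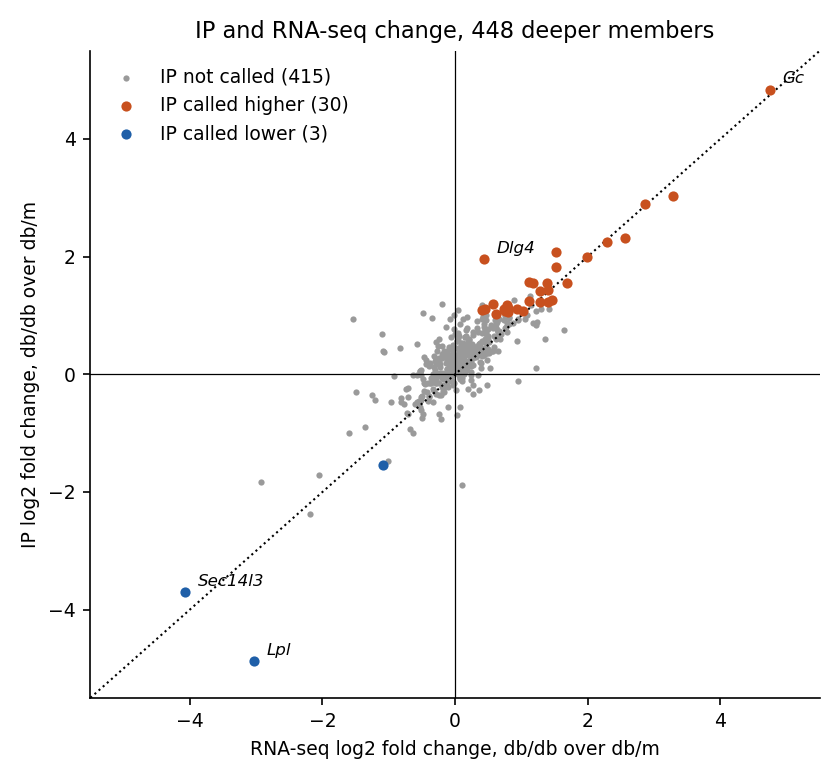
IP log2 fold change (y axis) against RNA-seq log2 fold change (x axis), db/db over db/m, for the 448 members with a mean of 20 IP reads or more, with members called in IP reads in orange (30, higher) and blue (3, lower) and the dotted line marking equal changes. The called members lie near that line, except Lpl below it and Dlg4 above it.

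Among the 448 members with a mean of 20 IP reads or more, the largest rise was that of Gc, the vitamin D binding protein, a carrier in plasma that proximal tubule cells take up from the filtrate. Its member, chr5:89457749-89457809, had 287 IP reads in the lowest, 331 in the median and 477 in the highest db/db animal. In the 5 db/m animals it had 40, 20, 5, 0 and 1 reads. The groups were far apart. The mean level was 40.2 CPM ± 6.46 (SD, n = 6) against 1.37 ± 1.73 (SD, n = 5), a log2 fold change of 4.84 (SE 0.607). In RNA-seq it was 4.75 (SE 0.232), with 54.5 CPM ± 7.96 against 1.99 ± 0.847, so that the ratio of IP to RNA-seq CPM was 0.737 in db/db and 0.688 in db/m mice.

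Cyp26b1 and Aldh1a1, named here for the size of their rise, are enzymes of retinoic acid turnover. Cyp26b1, which breaks retinoic acid down, had 117 to 331 IP reads in db/db animals, with a median of 247, at chr6:84572789-84572968. The db/m animals had 38, 5, 1, 95 and 13 reads, so that the highest db/m animal stayed below the lowest db/db animal. The log2 fold change was 3.02 (SE 0.644) in IP and 3.29 (SE 0.418) in RNA-seq. Aldh1a1, which makes retinoic acid from retinal, had 661 to 1303 reads with a median of 974.5 at chr19:20634423-20634512. Its db/m animals had 319, 117, 195, 339 and 47 reads, also without overlap. The log2 fold changes were 2.32 (SE 0.361) and 2.56 (SE 0.216).

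A member listed under Gm20425, at chr9:103220912-103221032, lies where RefSeq has Trf, the gene of the iron carrier transferrin. It had 345 to 473 IP reads in db/db animals, with a median of 414, and 80, 44, 6, 125 and 36 in db/m animals. Again the groups did not overlap. The log2 fold change was 2.89 (SE 0.44) in IP and 2.86 (SE 0.172) in RNA-seq.

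Acsl1 and Pex11a were also among the 8 largest rises. Acsl1 activates long-chain fatty acids, and its member at chr8:46530404-46530463 had 373 to 626 IP reads with a median of 397.5 in db/db animals and 170, 121, 87, 148 and 61 in db/m animals. Its log2 fold change was 1.99 in both IP (SE 0.255) and RNA-seq reads (SE 0.183). Pex11a promotes the division of peroxisomes, where very long chains are shortened. Its member at chr7:79736196-79736375 had 281 to 754 IP reads with a median of 330, against 128, 74, 98, 84 and 105. The log2 fold change was 2.08 (SE 0.278) in IP and 1.53 (SE 0.195) in RNA-seq reads. Db/db and db/m animals did not overlap for either gene, and db/db animal 5 was highest for Pex11a in both library types.

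Of the list of 57 fatty acid oxidation and lipid genes, 6 genes had 1 member each, all among the deeper members. In IP reads 3 were called higher (Acsl1, Acadvl, Acaa1b) and 1 lower (Lpl), and in RNA-seq reads 1 was called higher (Acsl1) and 1 lower (Lpl), where over all peaks 1.59% were called higher and 1.72% lower in IP and 1.98% and 1.97% in RNA-seq reads. Nothing is read from so few members chosen on this contrast. Acadvl, the first enzyme of mitochondrial oxidation of very long chains, had an IP level of 117 CPM ± 19.3 against 52.0 ± 11.4, a log2 fold change of 1.17. Acaa1b, a thiolase of peroxisomes, had 136 CPM ± 37.9 against 65.7 ± 16.3, or 1.05, and was not called without db/m animal 2. Cpt1a and Acadl, which bring fatty acids into mitochondria and begin their oxidation, had log2 fold changes of 0.73 and 0.67 and were not called. The summed RNA-seq level of the 23 listed genes with a peak was 9873.6 to 10965 CPM in db/db and 12388 to 13631 CPM in db/m mice, without overlap and in the opposite direction. Outside the list, Cpt1b, the form of Cpt1a that muscle uses, had 25.1 CPM ± 7.22 against 8.52 ± 4.50, a log2 fold change of 1.56 in IP and 1.18 in RNA-seq.

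**Figure D4:**
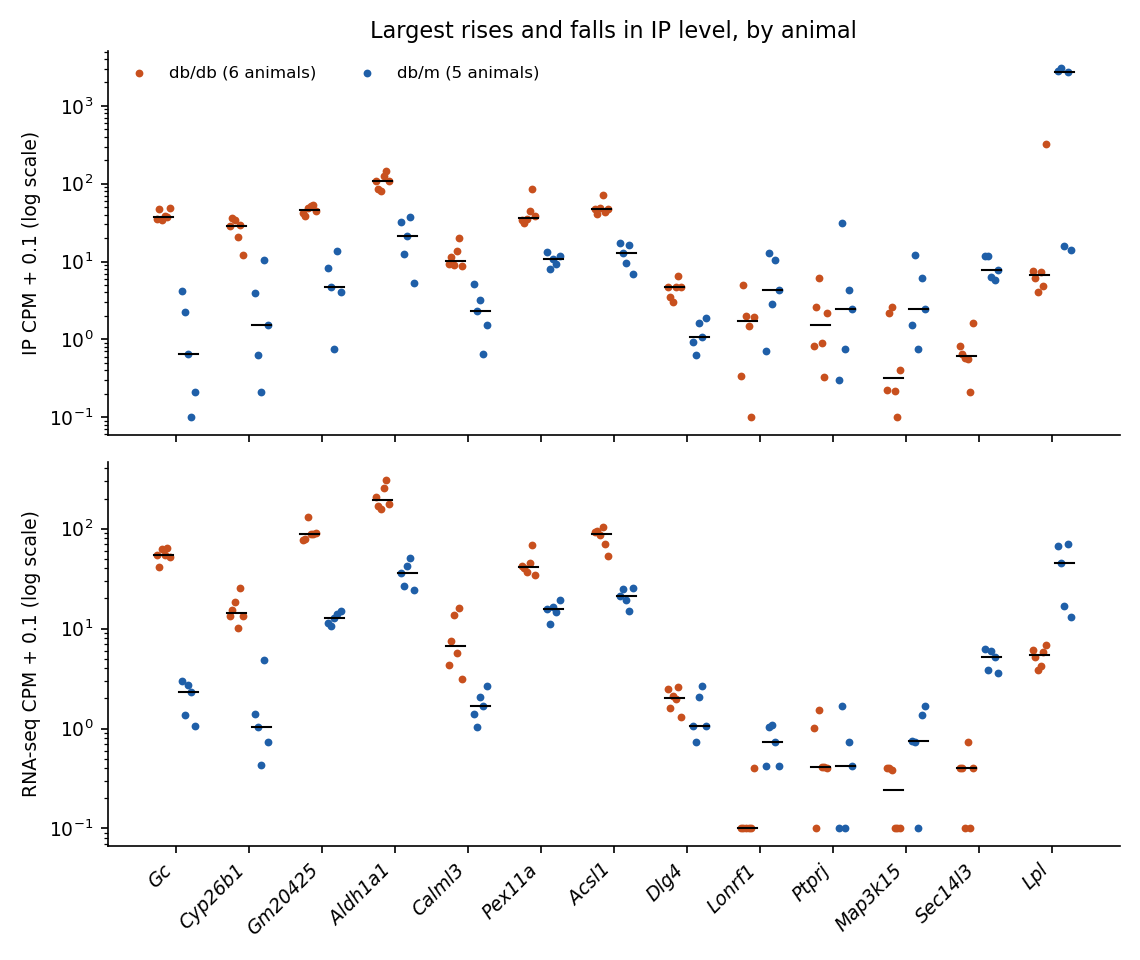
IP level (upper panel) and RNA-seq level (lower panel) of the 8 members with the largest rises and the 5 with the largest falls in IP log2 fold change among the 448 deeper members, as CPM + 0.1 on log scales, with 1 point per animal, db/db (6 animals) in orange, db/m (5 animals) in blue and the median as a bar. The 8 members on the left have no overlap between the genotypes in IP level. They were picked as the largest rises, so nothing is read from this. For Lpl 3 db/m animals lie far above the other 2.

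The other 2 of the 8 largest rises were Calml3, a calmodulin-like protein of epithelia, and Dlg4, a scaffold protein best known from synapses. Calml3 at chr13:3803813-3803962 had 74 to 176 IP reads in db/db animals, with a median of 94, and 50, 21, 28, 5 and 13 in db/m animals. The log2 fold changes were 2.25 (SE 0.449) in IP and 2.30 (SE 0.45) in RNA-seq reads. Dlg4 at chr11:70045413-70045532 had 24 to 58 IP reads with a median of 39, against 8, 5, 14, 9 and 16. It was the member of the 8 whose IP change went furthest beyond its RNA-seq change, with 1.96 (SE 0.487) against 0.44 (SE 0.397), at a mean of only 1.92 and 1.41 RNA-seq CPM. Its relative change of 1.5 was not called, and its IP call was lost without db/db animal 4 or 5 and with the animal number as a block.

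Among distal nephron genes 1 member was called higher in IP reads. Aqp2, the water channel of the collecting duct, had 267 to 465 IP reads in db/db animals, with a median of 372, and 118, 56, 170, 154 and 135 in db/m animals at chr15:99584309-99584398. The groups did not overlap, and the log2 fold changes were 1.56 (SE 0.274) in IP and 1.38 (SE 0.195) in RNA-seq reads. Of 37 listed distal nephron genes 4 had a member, with 5 members in all. The summed RNA-seq level of the 14 listed genes with a peak was 2964.7 to 4557.8 CPM in db/db and 3173.5 to 4507.7 CPM in db/m mice, with overlap. Guca2b, whose first bases are given above, had 94.3 CPM ± 17.3 against 43.6 ± 11.2 in IP, with log2 fold changes of 1.11 in IP and 0.94 in RNA-seq.

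Further members called higher are given singly and were chosen after their values were seen. Serpine2, a protease inhibitor also called protease nexin, had 37.1 CPM ± 8.47 against 13.7 ± 2.65, a log2 fold change of 1.44. Capg, which caps actin filaments, had 18.7 CPM ± 9.22 against 6.36 ± 2.17, or 1.55. Inf2, a formin that shapes actin, had 18.6 CPM ± 6.21 against 6.29 ± 2.67, or 1.56. These 3 were called in RNA-seq reads too, with 1.41, 1.68 and 1.11, and their groups did not overlap in IP level.

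Among the same 448 members the largest fall was that of Lpl, lipoprotein lipase, which frees fatty acids from circulating triglycerides. Its member at chr8:68905265-68905533 had 62, 56, 33, 63, 43 and 3110 IP reads in the 6 db/db animals. In the 5 db/m animals it had 27921, 28794, 145, 24817 and 125 reads. The db/m animals thus split into 3 very high and 2 low ones, and db/db animal 6 lay above the 2 low db/m animals. The log2 fold change was -4.88 (SE 1.38), between -8.16 and -4.57 when single animals were left out, and the call was lost in 7 of 11 such fits. RNA-seq reads were 211, 145, 51, 220 and 41 in db/m animals, highest in the same 3, and 20, 17, 13, 13, 18 and 22 in db/db animals. Db/db animal 6, far above the other db/db animals in IP reads, had 22 RNA-seq reads, close to the others and below every db/m animal. The RNA-seq log2 fold change was -3.03 (SE 0.385). It was the only member called in IP relative to RNA-seq reads, at -2.24, in a fit where the spread was taken as equal over peaks, which makes p too small for a peak as uneven as this. That call was lost with DESeq2, with a filter of a mean of 10 reads and without the animal term. The authors' fold enrichment of this db/db-list peak was 621.

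Adipocyte genes were checked beside Lpl. Of 15 listed, 4 had a peak, and their summed RNA-seq level was 4.0 to 6.98 CPM in db/db and 67.7, 46.3, 16.7, 72.7 and 13.3 CPM in db/m mice, with Lpl the most abundant. The defining adipocyte markers were near 0 in RNA-seq, where Adipoq had 1, 1, 0, 0, 0 and 0 reads in db/db and 0, 1, 0, 0 and 0 in db/m animals and Plin1 had 0 to 1 and 0. In IP libraries Adipoq had 0, 1, 1, 0, 0 and 9 reads in db/db and 5, 0, 0, 4 and 1 in db/m animals. Its reads were thus highest in db/db animal 6 and db/m animals 1 and 4, which were also high for Lpl, whereas db/m animal 2 had many Lpl reads and no Adipoq read. Plin1 had 20, 2, 0, 1, 3 and 0 IP reads in db/db and 0, 2, 0, 7 and 0 in db/m animals. The part of fat cells in the Lpl values was not tested.

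Sec14l3, a protein of the family that moves phospholipids between membranes, was lower throughout. Its member at chr11:4077587-4077706 had 1 to 15 IP reads in db/db animals, with a median of 4.5, and 116, 110, 56, 53 and 68 in db/m animals. RNA-seq reads were 0 to 2 against 19, 12, 18, 16 and 11. The log2 fold changes were -3.70 (SE 0.513) and -4.07 (SE 0.459). Sec14l3 had 3 members, and all were called lower in RNA-seq reads, although this one alone was called in IP reads.

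Of the other 3 of the 5 largest falls none was called in IP reads, and all were shallow in RNA-seq. Map3k15, a stress-signalling kinase, had 0 to 21 IP reads, median 2, in db/db and 14, 112, 6, 56 and 21 in db/m animals, a log2 fold change of -2.38. Ptprj, a receptor phosphatase, had 2 to 51, median 13.5, and 2, 291, 6, 39 and 21, or -1.88, and most of its db/m reads came from animal 2. Lonrf1, a ring finger protein, had 0 to 45, median 14, and 6, 121, 25, 94 and 38, or -1.83, and was called lower in RNA-seq reads on 1 read in db/db and 10 in db/m mice, a call lost in 11 of the 16 alternative fits. The groups overlapped in IP reads for all 3.

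The 10 members with the highest IP level in db/db mice were mostly parts of abundant transcripts, and 8 of them were not called. Rpl4 and Rpl14, proteins of the large ribosomal subunit, had IP levels of 1039 CPM ± 183 and 640 ± 100 in db/db and 826 ± 183 and 507 ± 114 in db/m mice. Sod1, which removes superoxide, had 734 CPM ± 131 against 944 ± 140, and Sdhc, an anchor of respiratory complex II, 384 ± 75.9 against 380 ± 93.1. The log2 fold changes were 0.33, 0.34, -0.36 and 0.02. Tns1, a focal adhesion protein, Rhoa, a GTPase of the cell skeleton, and Aldoa, a glycolytic enzyme, lay between 0.06 and 0.39. Slc13a3, the dicarboxylate carrier of the proximal tubule, had -0.39, with db/db animal 6 above all other animals. Genotypes overlapped for these 8.

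The other 2 were called. Utp20, a factor in the assembly of the small ribosomal subunit, had 1577 to 3067 IP reads with a median of 1782.5 in db/db animals and 798, 502, 790, 950 and 933 in db/m animals at chr10:88749342-88749522. Its mean level was 228 CPM ± 72.4 against 85.7 ± 20.7, a log2 fold change of 1.41 (SE 0.213), and 1.28 (SE 0.161) in RNA-seq. Cyp2a4, a steroid-oxidizing cytochrome P450, had 865 to 2194 with a median of 1414 against 6215, 2000, 4915, 5294 and 4240 at chr7:26314848-26315028. Only db/m animal 2 came within the db/db range. The log2 fold change was -1.55 (SE 0.254) in IP and -1.09 (SE 0.276) in RNA-seq, and reads of its near copy Cyp2a5 may be counted here.

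**Figure D5:**
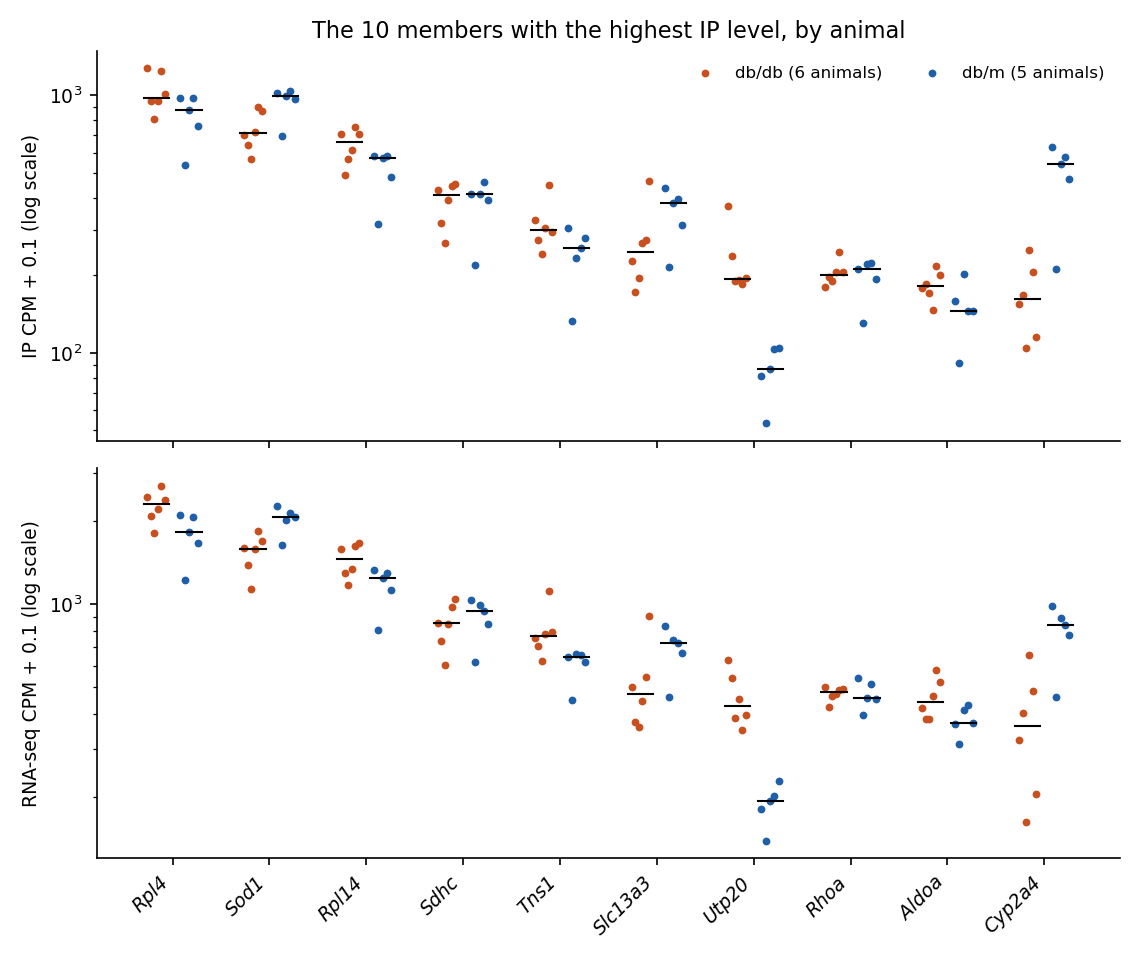
IP level (upper panel) and RNA-seq level (lower panel) of the 10 members with the highest mean IP level in db/db mice, as CPM + 0.1 on log scales, with 1 point per animal, db/db (6 animals) in orange, db/m (5 animals) in blue and the median as a bar. Only Utp20 has no overlap between the genotypes in IP level, and for the other 9 genes the points of the 2 genotypes mix, with Cyp2a4 the member called lower.

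The highest ratios of IP to RNA-seq CPM were found on low RNA-seq counts. Naa30, the catalytic subunit of an N-terminal acetyltransferase, had a ratio of 39.4 in db/db and 22.5 in db/m mice, with 7 to 67 IP reads and at most 1 RNA-seq read in a db/db animal, and the middle of its peak, chr14:49172226-49172286, lies 10 bases from the gene start in RefSeq. Rasip1, an endothelial Ras-interacting protein, had 29.0 and 4.38. Smad7, an inhibitor of TGF-beta signalling, had 18.8 and 11.4, and Nfix, a transcription factor, 15.3 and 7.24. Lonrf1 had 33.8 and 9.57. Of these 5, none was called in IP reads, with IP log2 fold changes from -1.83 to 0.95, and their groups overlapped.

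Genes that the study names were looked up among the members. Of Pappa, Nat10, Cdkn1a, Trp53, Cdkn2a, Lcn2, Havcr1, Tgfb1 and Actb, only Pappa had any. Pappa encodes a protease that cleaves IGF-binding proteins and so frees insulin-like growth factors. Its member at chr4:65355022-65355112 had 69, 42, 37, 10, 15 and 22 IP reads in db/db and 2, 4, 35, 19 and 8 in db/m animals. The groups overlapped, the log2 fold change was 1.32 (SE 0.706), and it was not called. RNA-seq reads were 0 to 4 in db/db and 0 to 1 in db/m animals. The other member at chr4:65352116-65352206 had 0, 4, 8, 0, 1 and 0 IP reads in db/db animals and none in db/m animals, too few for a fold change. Igf2 was the other gene of the IGF list with a member, at 0 to 6 and 2, 8, 0, 1 and 4 IP reads.

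Cell type and pathway lists held few members. Podocyte and glomerular basement membrane genes had 5 members in 4 genes, of which none was called in either kind of read, where all peaks had 1.59% called higher and 1.72% lower in IP and 1.98% and 1.97% in RNA-seq reads. With lists this short, nothing is read from their counts, here or for the lists that follow. Lamb2, a laminin chain of that membrane, had 43.7 CPM ± 7.37 against 25.3 ± 6.72, a log2 fold change of 0.79, and Synpo, an actin-binding protein of podocyte foot processes, 60.1 ± 15.2 against 36.3 ± 12.5, or 0.73. Matrix and mural genes (Sparc, Fbn1, Myh11), endothelial genes (Flt1, Vwf), senescence genes (Hmgb1, Gdf15, Il1a) and the tubular injury gene Krt8, a keratin, had 9 members, none called, beside the same shares over all peaks. Gdf15 and Il1a had at most 3 IP reads in any animal. Hmgb1, a chromatin protein released by stressed cells, had 53.2 CPM ± 6.15 against 46.9 ± 3.40, a log2 fold change of 0.18, and Krt8 had 45.4 ± 9.85 against 25.5 ± 9.23, or 0.83.

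Proximal tubule genes had 2 members, Slc13a3 and Slc16a14, a transporter of the monocarboxylate family. Slc16a14 was called lower in RNA-seq reads with a log2 fold change of -1.25 and had -0.35 in IP reads. Genes of the nucleolus and of ac4C writing had 5 members in 4 genes (Ncl, Nolc1, Pdcd11, Utp20), with Utp20 alone called, beside 1.59% higher and 1.72% lower in IP reads over all peaks. Chromatin and transcription regulators had 10 members in 9 genes, such as Arid1b, Ash1l and Baz1b, with none called beside the same shares. The summed RNA-seq level of the 41 genes of that list with a peak was 2895 to 3447 CPM in db/db and 3954 to 4965 CPM in db/m mice, without overlap, and its part in the members' values was not tested. Lists of immune, liver and blood cell genes had no member.

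Members were also found in genes of tissues other than kidney, at few reads. Of 16 listed lung genes, Ager, Cldn18 and Lamp3 had 1 member each, with 0 to 7 IP reads in any animal, and the summed RNA-seq level of the 7 lung genes with a peak was 0.313 to 1.71 CPM in db/db and 0.638 to 1.27 CPM in db/m mice. Ttn, the giant spring protein of muscle, had 0 to 2 IP reads. Myh6, the heavy chain of heart muscle myosin, had more members than any other gene, with 9 between chr14:54944356-54961206, which held 175 IP reads in db/db and 224 in db/m mice over all animals. D10Wsu102e had 6 members with 92 and 102 reads, and Macf1, a linker of microtubules and actin, 5 with 64 and 9. Ankrd12 differed from these with 4 members that were all deep, at 3346 and 2203 reads, none of them called.

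A grouping by gene symbol, chosen after the values were seen, gave 9 members in 8 ribosomal protein genes, 22 in 20 solute carrier genes and 20 in 19 genes of the Zfp and Zbtb zinc finger families. None was called in IP reads (1.59% higher and 1.72% lower over all peaks), and Slc16a14 alone was called in RNA-seq reads (1.98% and 1.97%), and nothing is read from these counts.

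Members lay along their genes much as other short coding peaks did. Of the 1152 whose middle fell inside the named gene in RefSeq, 207 (17.97%) were within 500 bases of its start and 163 (14.1%) within 500 bases of its end. These shares were 18.3% and 11.6% in peaks of both lists and 19.6% and 13.3% in db/m-only peaks. The median position on a scale from 0 at the start to 1 at the end was 0.807, against 0.790 and 0.707. The distance to the nearest db/m-list peak on the same strand had a median of 83446 bases, yet 163 members had such a peak within 1000 bases and 39 within 100 bases.

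Some members share reads with each other. A total of 26 members formed 13 overlapping groups, 4 overlapped a db/m-list peak on the other strand, and 87 genes had more than 1 member. Reads were not counted by strand, since totals lay within 10% of each other for 46 of the 52 peak pairs that overlap by 90% or more on the 2 strands. The members of Gm5901 and Fam160a2, on opposite strands of the same bases, are therefore 1 measurement, as are both members of Nap1l5, of the nucleosome assembly protein family, with log2 fold changes of 1.23 and 1.27 in IP reads.

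The edges of the set were fixed by its thresholds. The longest members were in Akap8 (992 bases), Otud3 (981) and Rpl11 (966), with IP log2 fold changes of 0.49, -0.08 and 0.38, and the peaks just too long were in Col11a2 (1015), Prrt1 (1026) and Nexn (1036). The members nearest to a db/m-list peak were in Flt1 and Gm17190, 28 bases away, and in Ncl and St8sia1, 29 bases away. Peaks in Pikfyve, Plekho1 and Zbtb10 stayed outside for a single shared base.

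The other peaks of the members' genes were not members themselves and were tested. They are not independent of the choice, since some are db/m-list peaks, which the rule for membership used. They also measure the same transcripts as the members, so their calls are likewise given as a description. They numbered 411, in 168 of the 1128 genes, so that most genes had no other peak. In IP reads 2 (0.487%) were called higher and 1 (0.243%) lower, and 11 passed an adjusted p of 0.05 by edgeR whatever the fold. In RNA-seq reads 4 (0.973%) were called higher and 1 (0.243%) lower. These counts were unstable, at 0 to 5 higher and 0 to 4 lower in IP and 0 to 5 higher and 0 to 3 lower in RNA-seq reads when single animals were left out, and 2 higher and 3 lower in RNA-seq reads with the animal number as a block. In IP relative to RNA-seq reads 0 were called, with 19 at an unadjusted p under 0.05. The shares over all peaks were 1.59% and 1.72% in IP and 1.98% and 1.97% in RNA-seq reads. The median log2 fold changes were 0.07 in IP, 0.08 in RNA-seq and -0.00 in IP relative to RNA-seq reads.

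The 5 with the smallest p in IP reads came from 3 genes. They were picked for small p in these same animals, so the permutation p-values given with them are no further evidence. Both called higher were overlapping peaks of Tsc22d4, a transcription regulator of the TSC22 family, that share nearly all reads. The longer, chr5:137758720-137759233, had 180 to 561 IP reads in db/db animals, with a median of 262, and 150, 92, 179, 126 and 139 in db/m animals, and the lowest db/db animal was only 1 read above the highest db/m animal before scaling. Its log2 fold change was 1.18 (SE 0.286; adjusted p = 0.0164 by edgeR's quasi-likelihood test; two-sided exact permutation p = 0.00433), and 0.56 in RNA-seq reads with an adjusted p of 0.0291. The call was lost without db/db animal 5.

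Acadvl had a pair of overlapping other peaks beside its member. The shorter, chr11:70011035-70011381, had 1308 to 2501 IP reads in db/db animals, with a median of 1884, and 1304, 762, 1266, 1187 and 876 in db/m animals. Its log2 fold change of 0.85 (SE 0.176) had an adjusted p of 0.0053 by edgeR and an exact permutation p of 0.00216, the smallest that 462 splits of the animals allow. It was under the fold threshold, as against 1.17 in the member of that gene, and RNA-seq reads changed alike, by 0.85 with an adjusted p of 0.000331. Lzts2, a leucine zipper protein of the centrosome, had 72.3 CPM ± 21.8 against 36.9 ± 8.41 at chr19:45026091-45026419, a log2 fold change of 0.97 with an adjusted p of 0.0100 by edgeR, and 0.88 in RNA-seq reads with an adjusted p of 0.00378. Its IP change passed the fold threshold in 8 of the 16 alternative fits.

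The remaining called peaks among these 411 were few. Hsph1, a heat shock protein, had 20.2 CPM ± 5.16 in db/db and 41.6 ± 20.6 in db/m animals at chr5:149636108-149636346, a log2 fold change of -1.04 in IP with an adjusted p of 0.0476 by edgeR. No peak was called lower in IP reads when any of 8 of the 11 animals was left out. In RNA-seq reads the 4 called higher were overlapping pairs in Ier5l (1.43 and 1.48) and Mtch1 (1.29 and 1.48), with adjusted p of 0.0223, 0.0272, 0.0417 and 0.0444 by edgeR. The 1 called lower was in Snx27, a sorting nexin of endosomes (-1.07, adjusted p = 0.0239). None of these 5 was called in IP reads.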

How the data were processed

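RNA from kidneys of 6 db/db and 5 db/m animals was measured by ac4C immunoprecipitation and by RNA-seq, 22 libraries in all. The authors deposited 1 table with whole-number read counts per peak and library, with the peaks' fold enrichment (a ratio of IP to input reads) and FDR (an adjusted p-value) in each list. Reads were sequenced in pairs, and the genome build was GRCm38 per the submitters' processing notes. The aligner, peak caller and counter are not given in the sources used here. Columns of the authors' own comparison of the genotypes (a log2 fold change, a p-value, an FDR and a score) were not used. Starts were moved by 1 base so that positions count from 1.

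Counts were fitted over all 9857 peaks with TMM factors and the quasi-likelihood test of edgeR 4.0.16 in R 4.3.3, for IP reads, for RNA-seq reads and for IP relative to RNA-seq reads with a term for each animal. A peak was called at a Benjamini-Hochberg adjusted p under 0.05 and a log2 fold change beyond 1. CPM values are counts scaled to the reads in peaks of each library, adjusted by its TMM factor. Single peaks were also tested by a two-sided exact permutation over 462 splits of the 11 animals. The scripts were tested on simulated counts. Nothing says whether samples of a genotype share a litter or cage, so p-values measure the spread between these animals only.

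Members, gene lists and tests were chosen with earlier results of these data known. The peaks named were the 10 members with the highest db/db IP level, the 8 largest rises and 5 largest falls and the 5 highest IP to RNA-seq ratios among members with a mean of 20 IP reads or more, genes the study names, up to 3 members per gene list, members at the edges of the thresholds, and the 5 other peaks of the same genes with the smallest p. Other called peaks were named after their values were seen. One member of the gene lists is not reported here. Alternatives were DESeq2 1.42.0, other scaling, a filter on low counts, no fold threshold, a block for the animal number, each animal left out, and other rules for membership. Sequences came from RefSeq gene starts (GRCm38.p6), since no genome was used here. Figures and tables were made with Python 3.11.15, pandas 2.3.3 and matplotlib 3.10.9.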

Additional observations from a re-analysis of the deposited data

Results flagged for a closer look

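Among 115 groups of values of the named peaks, 21 held an animal set apart by the gap to its nearest value. Each group was the db/db or db/m animals in IP or RNA-seq reads. For normally distributed values in independent groups, about 1 in 20, or 5.75, would be marked. Peaks here were picked partly for extreme values, both library types share animals, and some marks rest on 4 reads or fewer. The 5.75 is therefore not the chance rate of these groups. Of the 21, 8 were db/m animal 2. Its IP level was the highest db/m value for Ptprj (30.8 CPM), Naa30 (22.8 CPM), Nfix (7.21 CPM) and Smad7 (6.15 CPM) and the lowest for Sod1 (697 CPM) and Sdhc (219.5 CPM). In RNA-seq it was lowest for Tns1 (450.2 CPM) and highest for the Pappa member at 65352116 (1.26 CPM, 4 reads).

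Db/db animal 6 stood out for Lpl in IP (320.1 CPM), for Slc13a3 in IP (465 CPM) and RNA-seq (904 CPM) and for Lonrf1 in RNA-seq (0.303 CPM, 1 read). Db/db animal 5 was highest for Pex11a in IP (84.2 CPM) and RNA-seq (68.9 CPM) and for Tns1 in RNA-seq (1119 CPM). Db/db animal 4 was highest for Acsl1 in IP (71.8 CPM), animal 1 for Utp20 in IP (371 CPM) and animal 3 for Gm20425 (132 CPM) and the Pappa member at 65352116 (0.571 CPM, 2 reads) in RNA-seq. In db/m mice, animal 4 was highest for Cyp26b1 in RNA-seq (4.79 CPM) and animal 5 had 0 CPM for the Pappa member at 65355022. The part of any library in these values was not tested.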

How the results depend on the processing

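Among other peaks of the same genes the balance of calls turned in some settings, for example from 4 higher and 1 lower in RNA-seq reads to 2 higher and 3 lower with the replicate block. With a peak FDR under 0.05 the set held 717 members, and under the other rules for membership 1128 to 1230. DESeq2 called 5 members lower in IP reads, 0 lower in IP relative to RNA-seq reads and, among other peaks of the same genes, 4 lower in IP and 2 higher in RNA-seq reads. Without a fold threshold 55 members were higher in RNA-seq and 1 in relative reads, and other peaks numbered 9 higher and 2 lower in IP and 26 higher and 3 lower in RNA-seq reads. With a mean of 10 reads or more, 5 members were lower in RNA-seq and 0 in relative reads, and 0 other peaks were higher or lower in RNA-seq reads. Library sizes without TMM, or TMM factors from peaks of both lists, left 0 other peaks lower in IP reads.

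Animal numbers showed no clear pairing of the genotypes. The correlation of same-numbered deviations lay between -0.36 and 0.48, and in 0 of 5 numbers was the own number highest. With 5 numbers this check cannot decide whether same-numbered animals shared a batch. With the replicate block, 41 members were higher and 4 lower in IP, 31 higher and 10 lower in RNA-seq reads, and other peaks numbered 0 lower in IP and 2 higher and 3 lower in RNA-seq reads. Without the animal term, 0 members were lower in relative reads.

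Leaving out single animals gave 24 to 40 members higher and 2 to 4 lower in IP, 25 to 31 and 13 to 19 in RNA-seq, and 0 to 2 and 1 to 1 in relative reads. Other peaks numbered 0 to 5 higher and 0 to 4 lower in IP and 0 to 5 and 0 to 3 in RNA-seq reads. Over the 16 alternative fits, 20 of 33 IP calls and 26 of 44 RNA-seq calls of members were kept in all. The cause of these changes was not tested. Sequence features of whole peaks were not run, since no genome was used here. Depth limits the 786 members under a mean of 20 IP reads, none of which was called in IP reads.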
